A study of Nicotiana tabacum with 6 samples.

Results

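Leaf transcripts of 9 genes of sucrose and starch metabolism and of sucrose transport were examined in tobacco plants that lack a photosystem gene. The genes were chosen by symbol: all probe sets that the annotation of the tomato array names SPS, sus3, lin5, LIN7, LIN8, AgpL1, AGPL3, SUT2 or SUT4. There were 10 such probe sets among 10101 tested, since SUT4 had 2 probe sets and each other gene had 1.

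The groups were plants with a deletion of psaA, which is carried in the plastid and encodes a core subunit of photosystem I, plants with a deletion of psbA, which is carried there too and encodes the D1 subunit of photosystem II, and wild type (labelled normal), with 2 Affymetrix tomato GeneChip arrays each. All were leaves of Nicotiana tabacum, spelled cultivar Petit Havanna in the labels. One growth text covers all 6 samples: tissue-culture bottles, dim light for 16 h and dark for 8 h, a selection medium with spectinomycin at 500 mg/L, and leaves taken 2 to 3 weeks after subculture. If wild type was grown without the drug, drug and genotype cannot be told apart. The labels speak of 2 biological replicates per genotype; separate plants or lines are not mentioned, so p-values measure the spread between these arrays.

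In a source leaf, fixed carbon leaves the photosynthetic cycle along a pair of main routes. Sucrose phosphate synthase directs it into sucrose in the cytosol, and ADP-glucose pyrophosphorylase directs it into starch in the plastid. Sucrose is then moved across membranes by sucrose transporters and is cleaved by invertases in the cell wall or vacuole or by sucrose synthase in the cytosol. These clauses, and those on single genes below, are background on the tomato genes of these symbols or on plants in general.

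The deposited values are log2 intensities from which each probe set's median over the 6 arrays had been taken away. They show differences between arrays of 1 probe set, and not how abundant a transcript was or whether 1 gene was expressed above another. How near background a probe set lay cannot be read from them either, and a tobacco transcript is measured only as far as it matches the tomato probes. For the same reason the labelled tissue could not be checked by marker level. Fewer cells of a type and less RNA per cell cannot be told apart in such leaf samples.

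Transcripts of SPS, for sucrose synthesis, and AGPL3, for starch synthesis, were lower in the psaA mutant, 1.48-fold and 1.72-fold against wild type, and the other 8 probe sets were not called. The 2 calls of 10 stand against a background of 10.7% called among all tested probe sets. No probe set of the 9 genes was called in the psbA mutant against wild type (background 11.2%) or between the mutants (background 3.98%). Over the 6 arrays, 9 of the 10 probe sets spanned 0.29 (AgpL1) to 0.62 (SPS) on the log2 scale, and AGPL3 spanned more than 97.7% of all tested probe sets did.

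**Figure D1:**
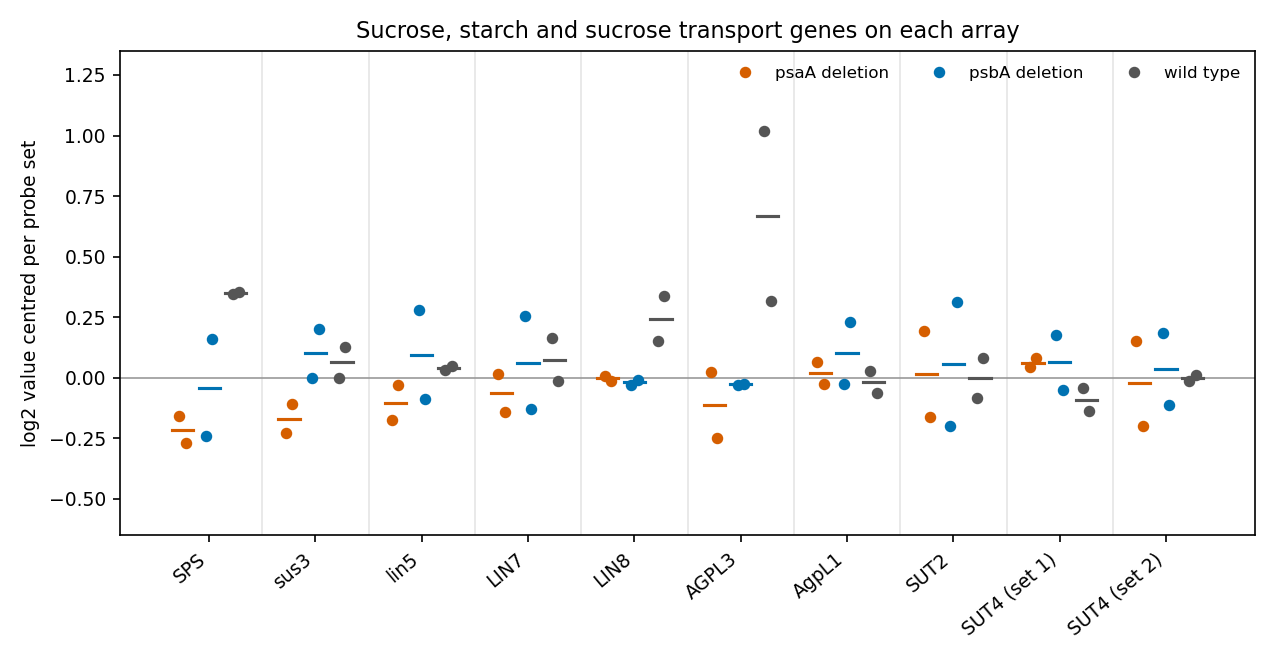
Centred log2 value (vertical axis) of each of the 10 probe sets on each array, with psaA deletion, psbA deletion and wild type from left to right within a gene. Points are arrays, 2 per group, and short lines are group means. Both wild-type arrays stand above all 4 mutant arrays in SPS, LIN8 and AGPL3, while the arrays of the 3 groups overlap in SUT2, SUT4 set 2 and AgpL1. Of all probe sets, 24.9% had both psaA arrays below both wild-type arrays and 24.3% had both psbA arrays below them. The share with all mutant arrays below was not counted.

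SPS (gene ID 543516) encodes sucrose phosphate synthase, which makes the phosphorylated precursor of sucrose. Its centred log2 values were -0.16 and -0.27 on the psaA arrays, -0.24 and 0.16 on the psbA arrays, and 0.34 and 0.35 on the wild-type arrays. Wild type was the highest group, no mutant array reached it, and the psbA arrays lay far apart. In the psaA mutant SPS fell 1.48-fold (log2 difference -0.56, SE 0.143, n = 2 per group, limma with Benjamini-Hochberg adjustment over 10101 probe sets, adjusted p = 0.0408). In the psbA mutant the difference from wild type was -0.39 (95% confidence interval -0.72 to -0.06, limma adjusted p = 0.132), which did not pass. The psbA arrays differed from each other by 0.40, more than 91.5% of all probe sets did in that group, whereas the wild-type arrays differed by 0.0094.

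The call on SPS was lost with any array of its comparison left out. Limma's adjusted p was 0.132 without replicate 1 and 0.198 without replicate 2 of the psaA mutant, and 0.155 without replicate 1 and 0.163 without replicate 2 of wild type, while the log2 difference stayed between -0.62 and -0.51, and with quantile normalization between arrays adjusted p was 0.0619. In the psbA mutant the SPS difference from wild type was -0.59 without psbA replicate 2 and -0.19 without psbA replicate 1. It was -0.395 without wild-type replicate 1 and -0.386 without wild-type replicate 2.

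AGPL3 (gene ID 544039) encodes a large subunit of ADP-glucose pyrophosphorylase, the enzyme that makes the glucosyl donor of starch synthesis. Its values were 0.02 and -0.25 on the psaA arrays, -0.03 and -0.02 on the psbA arrays, and 1.02 and 0.32 on the wild-type arrays. All 4 mutant arrays lay below both wild-type arrays, but the wild-type arrays were far apart. Their gap of 0.70 exceeded that of 99.6% of all probe sets in wild type. AGPL3 fell 1.72-fold in the psaA mutant (log2 difference -0.78, SE 0.209, n = 2 per group, limma adjusted p = 0.0498). In the psbA mutant it gave -0.70 (95% confidence interval -1.17 to -0.22, limma adjusted p = 0.0718), which did not pass.

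The size of the AGPL3 differences rested on which wild-type arrays were kept. Without wild-type replicate 1 the psaA difference was -0.43 (limma adjusted p = 0.195), and without wild-type replicate 2 it was -1.13 (limma adjusted p = 0.00938). The psbA difference was -0.35 without wild-type replicate 1 and -1.05 without wild-type replicate 2. In all, the psaA call was lost under 10 of 15 alternatives, with a log2 difference from -1.13 to -0.43 over the 15. Leaving out either psbA array gave the same fit as comparing only the 2 groups, so that lost call is counted more than once.

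**Figure D2:**
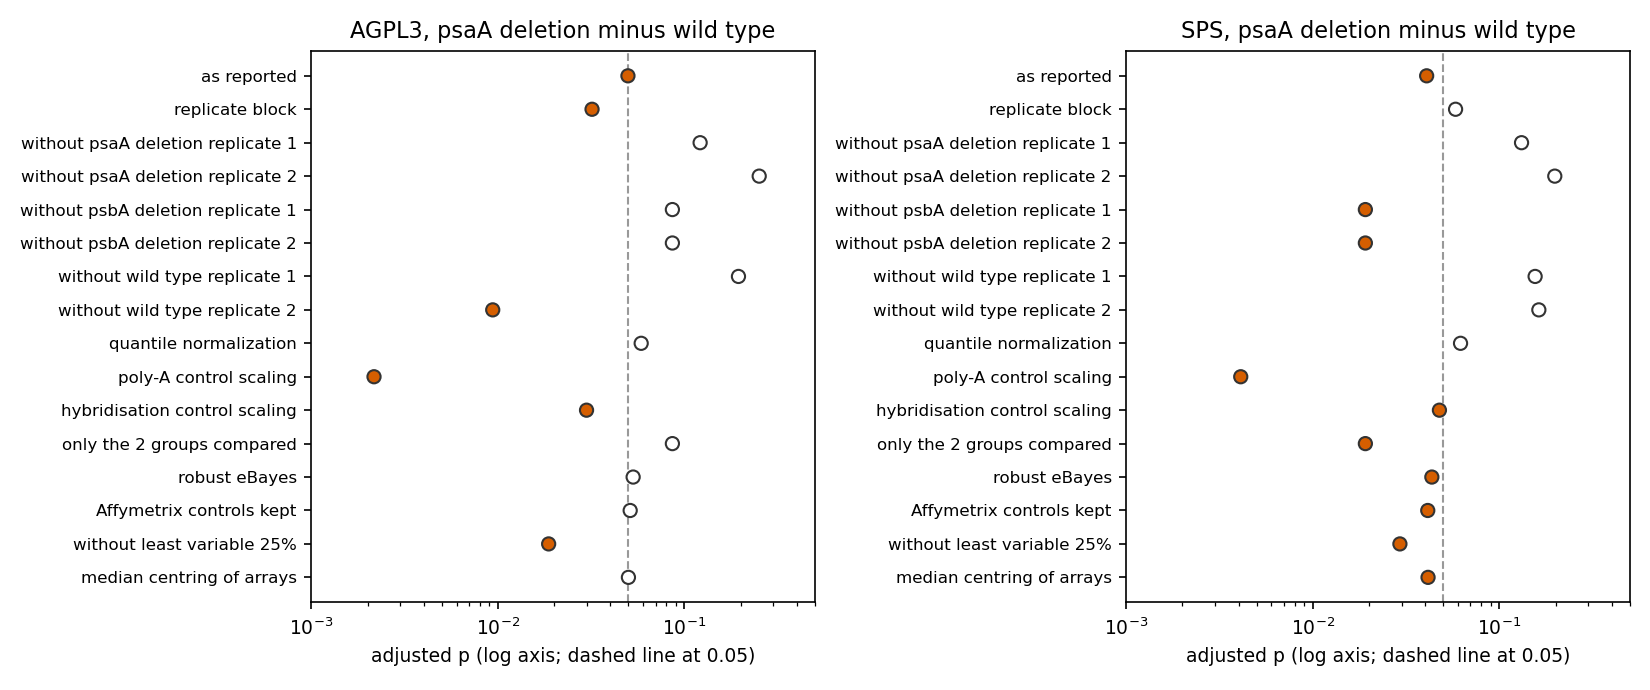
Adjusted p (horizontal log axis) of AGPL3 and SPS in the psaA mutant against wild type, as reported and under 15 alternatives, with filled points under 0.05. AGPL3 as reported sits at 0.0498, and SPS at 0.0408 is above 0.05 whenever an array of its comparison is left out.

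AgpL1 (gene ID 544283), another large-subunit gene of the same enzyme, gave values close to 0 on every array but 1. They were 0.06 and -0.03 in the psaA mutant, -0.03 and 0.23 in the psbA mutant, and 0.03 and -0.06 in wild type, so that all groups overlapped. Its difference from wild type was 0.04 in the psaA mutant (95% confidence interval -0.24 to 0.32) and 0.12 in the psbA mutant (-0.16 to 0.40), and limma's adjusted p was 0.901 and 0.62. These intervals span 0, and changes within them were not detectable with 2 arrays per group. Whether the response of AgpL1 differed from that of AGPL3 was not tested.

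The sucrose-cleaving genes were not called in any comparison. sus3 (gene ID 543731) encodes a sucrose synthase, which splits sucrose with UDP into UDP-glucose and fructose. Its values were -0.23 and -0.11 on the psaA arrays, 0.00 and 0.20 on the psbA arrays, and 0.00 and 0.13 on the wild-type arrays. The psaA arrays lay below those of the other groups, and the psbA and wild-type arrays overlapped. For psbA minus psaA the log2 difference was 0.27 (SE 0.12, limma adjusted p = 0.29), the largest between the mutants among the 10 probe sets, and sus3 was the only one of them whose mutant arrays did not overlap. Of all probe sets, 47.7% had mutant arrays that did not overlap, counting either direction.

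lin5 (gene ID 544241), LIN7 (543713) and LIN8 (544175) encode cell-wall invertases, which split sucrose outside the cell into glucose and fructose. In tomato fruit, lin5 is known as a gene behind natural differences in fruit sugar content. lin5 gave -0.18 and -0.03 in the psaA mutant, 0.28 and -0.09 in the psbA mutant, and 0.03 and 0.05 in wild type. LIN7 gave 0.02 and -0.14 in the psaA mutant, 0.26 and -0.13 in the psbA mutant, and 0.16 and -0.02 in wild type. In both genes the first psbA array was the highest of the 6 and the second was among the lowest, and their gaps of 0.37 and 0.39 exceeded those of 89.3% and 90.5% of all probe sets in that group. Differences from wild type were -0.14 for lin5 and -0.14 for LIN7 in the psaA mutant, and 0.05 and -0.01 in the psbA mutant, with limma's adjusted p between 0.605 and 0.975.

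LIN8 was highest in wild type. Its values were 0.01 and -0.01 in the psaA mutant, -0.03 and -0.01 in the psbA mutant, and 0.15 and 0.34 in wild type. All 4 mutant arrays lay within 0.04 of each other and below both wild-type arrays. The log2 difference from wild type was -0.25 in the psaA mutant (95% confidence interval -0.50 to 0.0073, limma adjusted p = 0.224) and -0.26 in the psbA mutant (-0.52 to -0.0090, limma adjusted p = 0.187), and neither passed.

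The sucrose transporter genes showed no called difference. SUT2 (gene ID 543613) and SUT4 (543620) encode proteins that carry sucrose together with protons across membranes. SUT2 gave 0.19 and -0.16 in the psaA mutant, -0.20 and 0.31 in the psbA mutant, and -0.08 and 0.08 in wild type. Here the replicates of each mutant differed more than the groups did: the gaps were 0.35 and 0.51, against mean differences from wild type of 0.02 and 0.06. The 95% confidence intervals of those differences ran from -0.41 to 0.44 in the psaA mutant and from -0.37 to 0.48 in the psbA mutant.

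SUT4 was read by 2 probe sets. Set 1 gave 0.04 and 0.08 in the psaA mutant, 0.18 and -0.05 in the psbA mutant, and -0.04 and -0.14 in wild type. Set 2 gave 0.15 and -0.20 in the psaA mutant, 0.19 and -0.11 in the psbA mutant, and -0.01 and 0.01 in wild type. Both psaA arrays were above both wild-type arrays in set 1, and the same groups overlapped in set 2. The difference in the psaA mutant was 0.15 in set 1 and -0.02 in set 2 (limma adjusted p = 0.498 and 0.953), and in the psbA mutant it was 0.15 and 0.04 (0.479 and 0.919).

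**Figure D3:**
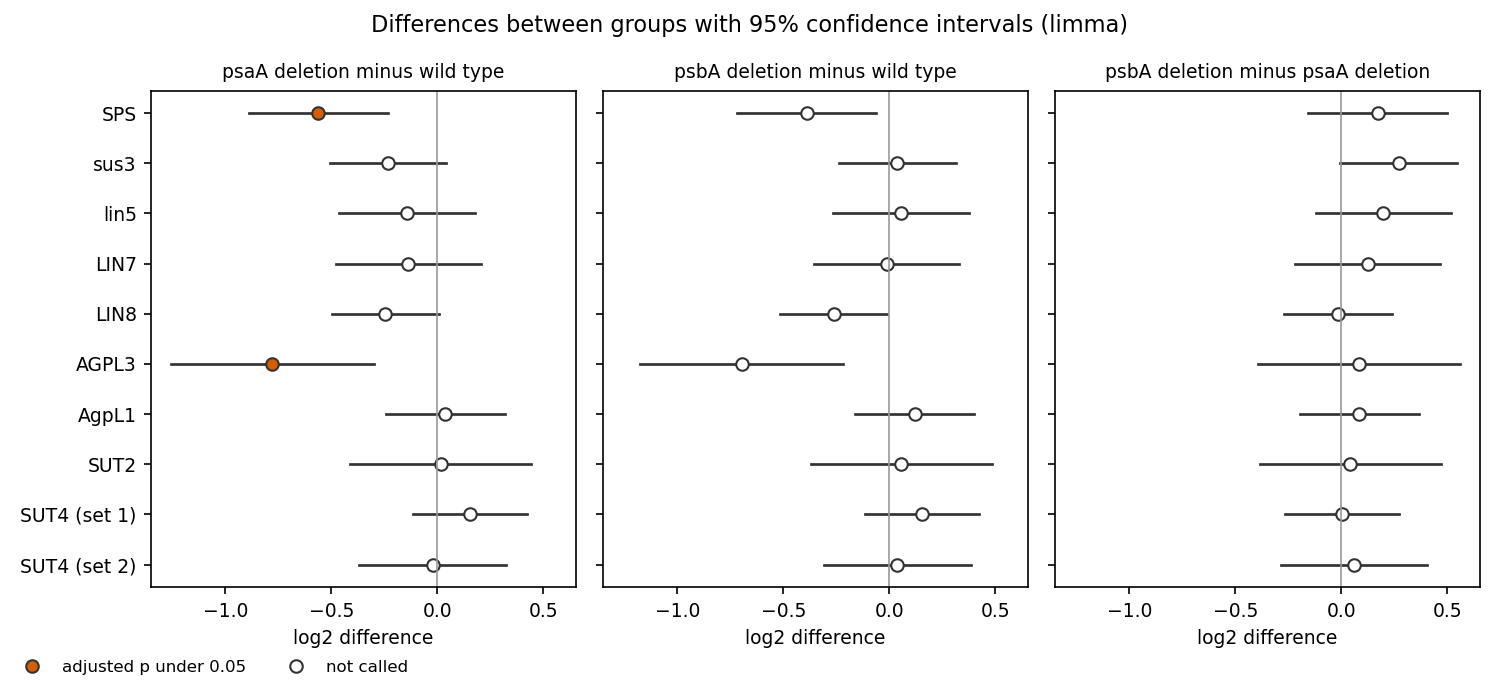
Log2 difference (horizontal axis) of each probe set in the 3 comparisons, with limma's 95% confidence interval as a bar, from 2 arrays per group. Filled points, SPS and AGPL3 in the psaA mutant against wild type, had an adjusted p under 0.05, and the intervals of the other probe sets in that panel run from -0.51 (sus3) to 0.44 (SUT2).

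Counted together, 2 of the 10 probe sets fell, 0 rose and 8 were not called in the psaA mutant against wild type, where limma called 10.7% of all tested probe sets (6.06% lower and 4.66% higher). At an unadjusted p under 0.05 the count was also 2, against 23.8% of all. The median log2 difference of the 10 was -0.14, against 0.02 over all probe sets. Arrays of the groups did not overlap in 6 of the 10, 5 of them lower and 1 higher, against 53.7% of all probe sets (24.9% lower and 28.8% higher).

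In the psbA mutant against wild type limma called 0 of the 10, against 11.2% of all probe sets, while 3 had an unadjusted p under 0.05 (SPS, LIN8 and AGPL3), against 24.5% of all. The same 3 probe sets were those whose arrays did not overlap, all lower, against 52.7% of all probe sets (24.3% lower). The median of the 10 was 0.04, against 0.02 over all probe sets. Between the mutants limma called 0 of the 10, against 3.98% of all probe sets, and 0 had an unadjusted p under 0.05, against 17.8% of all, and the median psbA minus psaA difference was 0.08, against 0.02. Differences between the mutants were 0.17 for SPS (95% confidence interval -0.15 to 0.50, limma adjusted p = 0.597) and 0.08 for AGPL3 (-0.39 to 0.56, limma adjusted p = 0.88). The calls in the psaA mutant are thus not shown to differ from the values in the psbA mutant. The comparisons with wild type share the wild-type arrays.

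**Figure D4:**
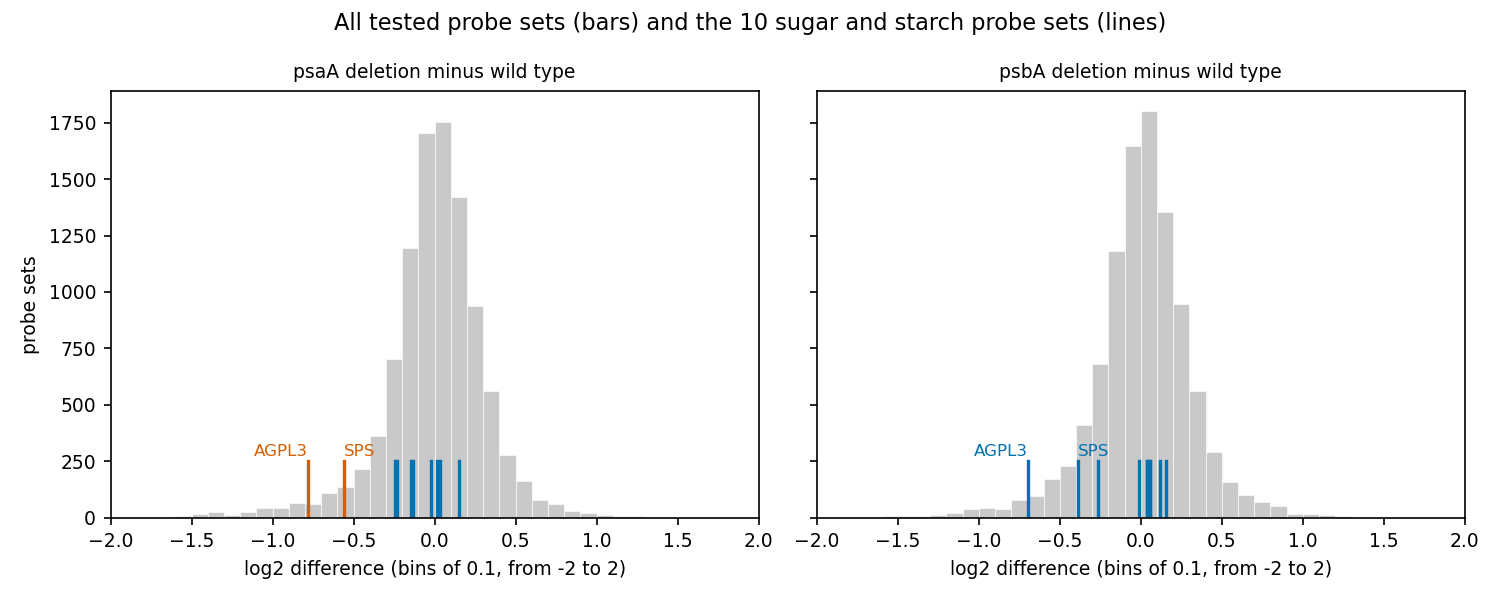
Number of tested probe sets (vertical axis) per bin of 0.1 in log2 difference from wild type, with the 10 sugar and starch probe sets as lines of equal height, in orange where called. AGPL3 and SPS lie in the lower tail and the other lines in the bulk, and 17 probe sets (psaA panel) and 8 (psbA panel) lie beyond the 2 log2 units shown.

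Values of the whole series that stand beside these results are few. The 3' minus 5' difference of control probe sets, which reflects RNA quality, exceeded that of wild type by 0.27 to 0.31 in the psaA mutant for actin, gapdh, ef1a and ubiquitin. For the psbA mutant the same 4 values were -0.13 (actin), -0.08 (gapdh), -0.09 (ef1a) and 0.32 (ubiquitin). As psbA minus psaA they were -0.40, -0.36, -0.40 and 0.02 in the same order. Of 8 leaf photosynthesis and nitrogen genes from a marker list, 8 were called lower in the psaA mutant (median -0.97), against 6.06% of all probe sets. In the psbA mutant 7 were called lower (median -0.70), against 11.2% of all called in either direction. The other leaf gene, CAB6A, gave -0.32 there and was not called. Of 4 root, 3 meristem and 1 epidermis marker genes none was called in the psaA mutant, against 10.7% of all probe sets. In the psbA mutant 1 root gene was called higher and 1 lower, against 11.2% of all. The mean centred value of the root list per array lay between 0.01 and 0.02 for psaA arrays, between -0.07 and -0.03 for psbA arrays and between -0.01 and 0.06 for wild-type arrays. The part of RNA quality and tissue makeup in the differences of SPS and AGPL3 was not tested.

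Other genes of the same pathways were placed beside these by symbol. BMY3 (gene ID 543804) carries the symbol of a beta-amylase, an enzyme that releases maltose from starch, and had 3 probe sets. Set 1 gave -0.04 and -0.36 in the psaA mutant, -0.14 and 0.04 in the psbA mutant, and 0.56 and 0.38 in wild type. Set 2 gave -0.11 and -0.15 in the psaA mutant, -0.46 and 0.11 in the psbA mutant, and 0.55 and 0.95 in wild type. In both, all mutant arrays lay below both wild-type arrays. Of all probe sets, 24.9% were separated this way for the psaA arrays and 24.3% for the psbA arrays, and the joint share was not counted. In the psaA mutant set 1 fell by 0.67 (SE 0.142, limma adjusted p = 0.0193) and set 2 fell by 0.88 (SE 0.198, limma adjusted p = 0.0258).

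In the psbA mutant BMY3 set 2 fell by 0.92 (SE 0.198, limma adjusted p = 0.0198) and set 1 gave -0.52 (limma adjusted p = 0.051). Set 3 gave -0.29 in the psaA mutant and -0.10 in the psbA mutant (limma adjusted p = 0.301 and 0.753), so the 3 probe sets of the gene do not give the same call. With 1 array left out, the psaA calls of set 1 and set 2 were each lost in 3 of 6 cases, and the psbA call of set 2 in 2 of 6. All of these losses came with an array of the groups compared left out. Cases without an array of the third group gave the same fit as the 2-group comparison, where the calls held. Over the 6 cases the psaA difference ran from -0.84 to -0.51 in set 1 and from -1.08 to -0.68 in set 2. The psbA difference of set 2 ran from -1.21 to -0.64.

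The remaining pathway genes were not called. AI, the vacuolar acid invertase gene, differed from wild type by -0.17 in the psaA mutant and 0.15 in the psbA mutant. Wiv-1, a cell-wall invertase gene, gave -0.11 and -0.02 in these comparisons, CIF1, an invertase inhibitor gene, gave -0.06 and 0.05, and AGP-S2 gave 0.03 and -0.31. These 5 genes, BMY3 included, had 7 probe sets. In the psaA mutant 2 were called lower and 0 higher, where 10.7% of all tested probe sets were called (6.06% lower). In the psbA mutant 1 was called lower and 0 higher, where 11.2% of all were called in either direction. All of these calls are probe sets of BMY3, so they speak for 1 gene, and 1 of 7 probe sets is near the background. Of 9 hexose kinase and hexose transporter genes, which act on the products of sucrose cleavage, 0 were called by limma in any comparison. Limma called 10.7% of all probe sets in psaA against wild type, 11.2% in psbA against wild type and 3.98% between the mutants. At an unadjusted p under 0.05 there were 4 of 9 in psaA against wild type (23.8% of all probe sets), 2 in psbA against wild type (24.5% of all) and 1 in psbA against psaA (17.8% of all), the last 2 counts lying near or below the background. Nearest to a call was FRK2, a fructokinase gene, at 0.39 in the psaA mutant and 0.37 in the psbA mutant (limma adjusted p = 0.0553 and 0.0634).

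Subunits of SnRK1, the kinase complex through which plant cells respond to a low energy supply, were read by 1 probe set each. SNF1 carries the symbol of the catalytic subunit, GAL83 of a beta subunit and SNF4 of a regulatory subunit. GAL83 (gene ID 543876) gave 0.03 and -0.03 in the psaA mutant, 0.35 and 0.49 in the psbA mutant, and -0.19 and -0.20 in wild type. It rose 1.53-fold in the psbA mutant (log2 difference 0.62, SE 0.107, limma adjusted p = 0.0082) and gave 0.19 in the psaA mutant (limma adjusted p = 0.332).

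SNF1 (gene ID 778276) gave 0.04 and -0.04 in the psaA mutant, 0.30 and 0.37 in the psbA mutant, and -0.11 and -0.12 in wild type. Its psbA arrays were the highest of the 6, as in GAL83. Of all probe sets, 52.7% had psbA and wild-type arrays that did not overlap, in either direction, and 47.7% had mutant arrays that did not overlap. SNF1 rose by 0.45 in the psbA mutant (SE 0.105, limma adjusted p = 0.0281) and gave 0.12 in the psaA mutant (limma adjusted p = 0.571). SNF4 gave -0.21 in the psaA mutant and -0.10 in the psbA mutant (limma adjusted p = 0.329 and 0.653). Limma thus called 2 of these 3 probe sets in the psbA mutant, against 11.2% of all, and 0 in the psaA mutant, against 10.7%. In each mutant the arrays of all 3 were separate from wild type, 2 higher and SNF4 lower. Arrays were separate from wild type, in either direction, in 53.7% of all probe sets for psaA and 52.7% for psbA. Set against each other, psbA minus psaA was 0.42 for GAL83 (95% confidence interval 0.18 to 0.67, limma adjusted p = 0.0711) and 0.33 for SNF1 (0.10 to 0.57, limma adjusted p = 0.136), neither passing.

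Both rises depended on the arrays and on scaling. The SNF1 call was lost with any 1 of the 6 arrays left out (limma adjusted p from 0.0503 to 0.123), and the GAL83 call without wild-type replicate 1 (0.0523) or wild-type replicate 2 (0.0559). Scaling the arrays on added poly-A control RNAs moved the median of all probe sets to -0.44 in this comparison. GAL83 then gave 0.16 (limma adjusted p = 0.391) and SNF1 gave -0.0091 (limma adjusted p = 0.96), so both calls were lost. Such scaling shifts all probe sets of a comparison by the same amount, so it cannot change their place relative to the median.

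**Figure D5:**
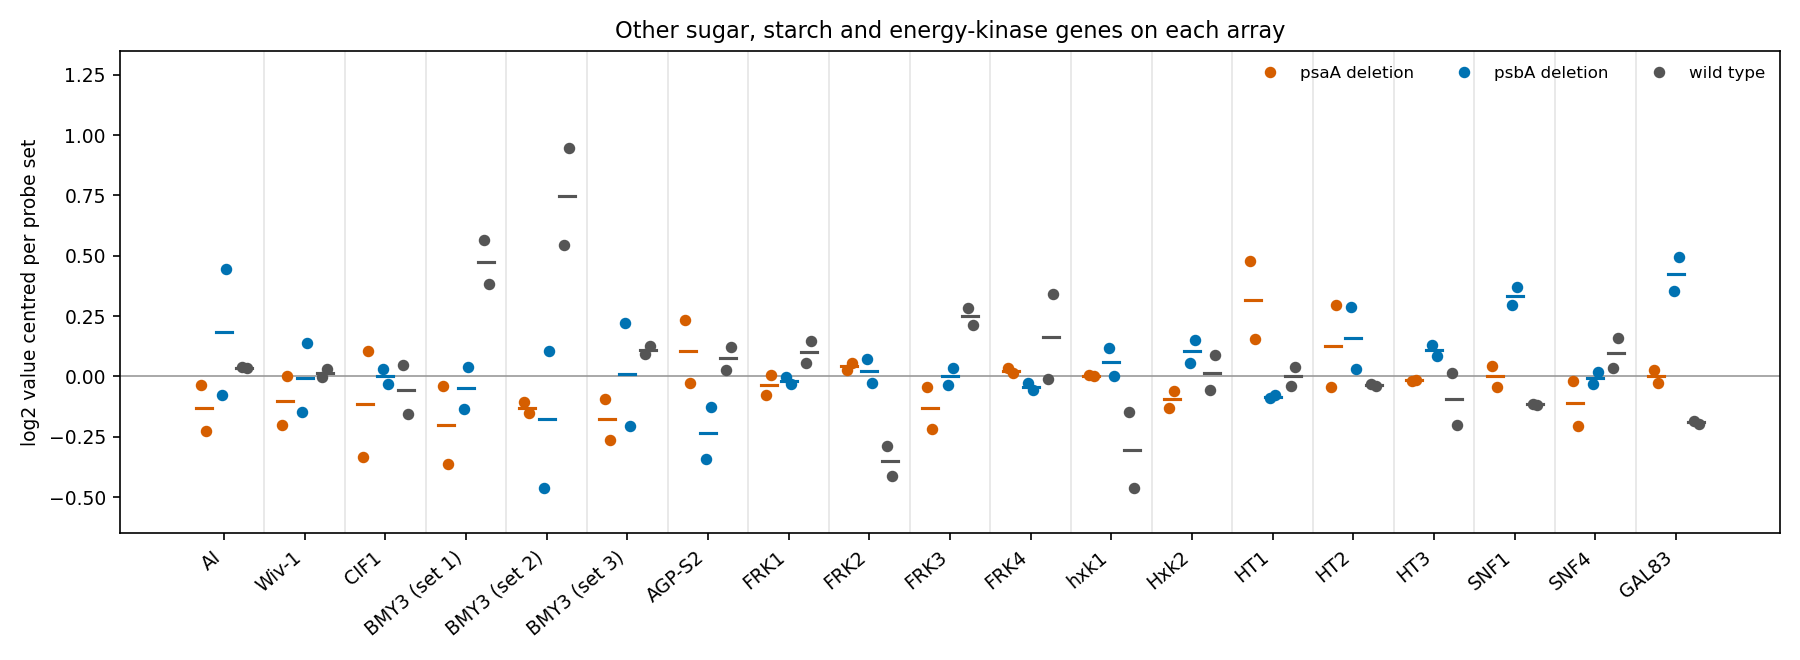
Centred log2 value (vertical axis) of the other sugar and starch genes, the hexose kinase and transporter genes and the SnRK1 subunit genes on each array, with psaA deletion, psbA deletion and wild type from left to right within a gene; points are arrays and short lines group means. Wild type is highest in BMY3 sets 1 and 2, and the psbA mutant is highest in SNF1 and GAL83, with both psbA arrays above the other 4. Of all probe sets, arrays did not overlap in 53.7% (psaA against wild type), 52.7% (psbA against wild type) and 47.7% (psbA against psaA).

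Patterns most like those of the called genes were sought among 701 probe sets of genes with a symbol, over the 6 arrays. For SPS the nearest were LCY1 (Pearson r = 0.98), ERF3 (0.97) and BCCP1 (0.96), and 15 probe sets had r above 0.9. LCY1 gave -0.17 and -0.25 in the psaA mutant, -0.36 and 0.17 in the psbA mutant, and 0.28 and 0.24 in wild type, with the same wide gap between the psbA arrays as in SPS. For AGPL3 the nearest were SBT2 (0.98), XTH16 (0.96) and VDE (0.95), with 16 above 0.9. XTH16 gave -0.01 and -0.02 in the psaA mutant, -0.04 and 0.01 in the psbA mutant, and 0.42 and 0.23 in wild type, again with wild-type replicate 1 the highest array. All genes share the same 6 arrays in 3 groups, so these values are descriptions and carry no test.

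Among the 10 probe sets themselves the strongest correlation over the 6 arrays was negative, between SPS and SUT4 set 1 (r = -0.90). LIN8 with SUT4 set 1 (-0.79) and lin5 with SUT2 (-0.70) were also opposed. SUT4 set 2 did not share this, at -0.16 with SPS and -0.0089 with LIN8, and the SUT4 sets correlated at 0.33. The pairs named as opposed or closest are the extremes of all pairs and carry no test. The closest positive pairs were SPS with LIN8 (r = 0.79) and SPS with AGPL3 (0.76), followed by LIN7 with SUT4 set 2 (0.76), AgpL1 with SUT2 (0.75) and lin5 with LIN7 (0.71). The SPS pairs with LIN8 and AGPL3 share the high wild-type arrays. In the LIN7 and SUT4 set 2 pair and in the lin5 and LIN7 pair, the first psbA array is the highest of the 6, and in AgpL1 and SUT2 the second psbA array is.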

How the data were processed

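RNA of 6 leaf samples was hybridised as biotin-labelled cRNA, made from 5 ug of total RNA, to Affymetrix tomato arrays. The deposited table holds log2 values of 10209 probe sets. RMA and GCRMA are named, per the submitters' processing notes; which of them made the values, their versions and the log base are not given in the sources used here. Both methods return base 2, which was assumed. Each probe set's median over the 6 arrays is 0 within 1e-06, so the values had been centred. Affymetrix controls (108 probe sets) were removed. A linear model with 3 groups was fitted to all 10101 others with limma 3.58.1 (lmFit, eBayes, R 4.3.3; 3 residual and 5.39 prior degrees of freedom), tested two-sided and adjusted by Benjamini-Hochberg over all of them, with a call under 0.05. The script was tested on simulated data. Plots were drawn with matplotlib 3.10.9. Gene symbols came from the platform annotation of 2007, in which 909 tested probe sets had 1 symbol, 0 had several and 9192 had none. None (0) of the 9 tomato gene IDs is in the tobacco gene table, and no sequences or genome positions are used here. The number of arrays limits precision: the median SE was 0.125.

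Members and lists were chosen with earlier results of these data known. The rule names all 9 members with every probe set, listed pathway genes that pass or have the smallest p, and the 3 genes with the most similar pattern for each called member. BMY3, AI, CIF1, AGP-S2, SNF1, SNF4 and GAL83 were added by symbol after the annotation was read. Of a xylem marker list no gene was matched. The replicate numbers did not pair the arrays: deviations of same-numbered arrays correlated at 0.02, -0.0049 and -0.0086. Alternatives were a replicate block, each array left out, quantile normalization, scaling on poly-A or hybridisation controls, 2-group fits, robust eBayes, controls kept, the least variable 25% left out and, added after seeing the data, median centring.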

Additional observations from a re-analysis of the deposited data

How the results depend on the processing

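Fewer arrays, another scaling or another fit changed how many of the 10 probe sets were called, and the causes were not tested except where fewer samples entered. In the psaA mutant against wild type, 2 were called as reported, 1 with the replicate block, with only the 2 groups compared, with robust eBayes, with Affymetrix controls kept or with median centring of arrays, and 0 with quantile normalization; with 1 array left out the count ran from 0 to 1. In the psbA mutant against wild type, 0 were called as reported, 1 with the replicate block, with hybridisation control scaling or without the 25% of probe sets with the smallest range, and 7 with poly-A control scaling; with 1 array left out it ran from 0 to 1. Between the mutants the count was 0 under every alternative run. For psaA against wild type, SPS and AGPL3 both stayed called with poly-A control scaling (limma adjusted p = 0.0041 and 0.0022). Both also stayed called with hybridisation control scaling (limma adjusted p = 0.0477 and 0.0299) and without the least variable 25% (limma adjusted p = 0.0293 and 0.0187). Over all alternatives there was 1 gain of a call among the other 8 probe sets in that comparison. The replicate numbers do not pair the arrays, so a call lost under the block is not read further: SPS had a limma adjusted p of 0.0582 and AGPL3 of 0.032 in the psaA mutant, and AGPL3 passed in the psbA mutant at 0.0465.

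Poly-A control scaling gave medians over all probe sets of -0.22 (psaA against wild type), -0.44 (psbA against wild type) and -0.20 (psbA against psaA). Under it the psbA difference from wild type turned to -0.42 for sus3, -0.41 for lin5, -0.42 for SUT4 set 2 and -0.37 for Hxk2, which then passed, and to -0.0091 for SNF1, which no longer did; all but SNF1 lie within 0.1 of that median. Over all probe sets it called 6110 in the psbA mutant, 1.67% of them higher, against 1128 as deposited with 48.4%, and 814 between the mutants, 7.49% of them higher, against 402 with 44.8%; of the psaA calls 9.23% were higher, against 43.5%. With hybridisation control scaling 52.2% of the psaA calls were higher. The count between the mutants was 266 with only the 2 groups compared. With 1 array left out, counts over all probe sets lay between 494 and 994 for psaA against wild type, between 509 and 842 for psbA against wild type, and between 115 and 266 for the mutants. Levels over background cannot be given for centred values, so dim probe sets could not be filtered.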
